A study of Mus musculus with 2 samples.

Results

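Foxc1, Foxc2, Foxd1, Aldh1a2 and Crabp2 were followed on the arrays of aged mouse hippocampus, as 5 of the 60930 coding and long non-coding RNA (lncRNA) features that each array carries. The genes were chosen by their ratio on these same arrays, where all 5 were higher after surgery, so that the ratios below are a description and no test of them was made. The surgery pool was made from C57 male mice (C57BL/6 in the methods of the study), 16 to 18 months old, on day 3 after unilateral nephrectomy, the removal of a kidney. The control pool was made from males of the same strain and ages that were given no specific treatment, so that anesthesia, incision and loss of the kidney cannot be told apart. The hippocampal RNA of 3 mice was pooled for each array, and 1 array per group was analysed here, although the methods of the study state that the assay was repeated. Differences between mice or between pools could therefore not be measured, and none of the values has a replicate check.

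The meninges are the membranes that cover the brain, and their fibroblasts derive from neural crest and mesoderm. Foxc1, Foxc2 and Foxd1 encode forkhead transcription factors, proteins that bind DNA through a winged-helix domain, and they are known from the mesenchyme of the meninges, the eye, the kidney and the vessels. Foxc1 is required for the meninges to form over the forebrain. Aldh1a2 encodes a retinaldehyde dehydrogenase that makes retinoic acid from retinaldehyde, and meningeal fibroblasts are a well-known source of this signal in the brain. Crabp2 encodes a cellular retinoic acid-binding protein, which carries retinoic acid to its nuclear receptors. All 5 genes are used as markers of meningeal and other mesenchymal fibroblasts and are not typical of hippocampal neurons.

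Each gene was read by 1 spot per array that holds an oligonucleotide of 60 bases. These sequences are shown because every value below is the brightness of such a spot. The Aldh1a2 oligonucleotide matches chr9:71293635-71293694 of GRCm38.p6, plus strand, and crosses the end of the coding sequence, with the stop codon in capitals. The Crabp2 oligonucleotide matches chr3:87948851-87948910, plus strand, near the start of the gene. Those of the forkhead genes lie at the 3′ ends of their transcripts. Their listed targets span 82 (Foxc1), 70 (Foxc2) and 289 bases (Foxd1), more than 60, so that exact positions are not given. The last 30 bases of the forkhead oligonucleotides are shown, with the polyadenylation signal AATAAA in capitals where it is present.
Aldh1a2: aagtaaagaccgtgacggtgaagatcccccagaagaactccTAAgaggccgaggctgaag
Crabp2: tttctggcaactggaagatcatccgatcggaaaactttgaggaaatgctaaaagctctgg
Foxc1: aaaatttgatcattgttaaaggattgctgc
Foxc2: tgtatttaccttaaAATAAAcccgtgttgt
Foxd1: tttggtagacttttttcatggaaagaaaaa

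The longest run of bases that any of the 10 pairs of these oligonucleotides shared was 7, and the 3 forkhead oligonucleotides shared runs of 6. The G and C content was 35% for each of the forkhead oligonucleotides, 43.3% for Crabp2 and 53.3% for Aldh1a2, with a median of 45% over the 446 coding oligonucleotides with a known sequence. In GRCm38.p6, Foxc1 (NM_008592) spans chr13:31806646-31810635 and Foxd1 (NM_008242) spans chr13:98354245-98356705. Foxc2 (NM_013519) spans chr8:121116171-121118895, with another forkhead gene, Foxl1, starting 8790 bases after it. Aldh1a2 (NM_009022) spans chr9:71215789-71296243 and Crabp2 (NM_007759) chr3:87948693-87953372, and all 5 genes lie on the plus strand.

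On the arrays, 76.4% of the spots were well above background for the control pool and 73.8% for the surgery pool, and 44044 features were detected on both. Signals below are the processed signals of the scanner software, corrected for background within an array. Ratios are log2 ratios of surgery over control after quantile normalization between the arrays, with a median of 0.04 over the detected features. A ratio is followed by ± its spot error as the scanner software gives it, combined over both arrays, which covers the measurement on the array only. Names were available only for probes that the authors list as changed at least 2-fold, so that an unchanged gene cannot be named here, and counts of changed genes in a list follow from that choice. The hippocampal origin could not be checked for the same reason, since 1 of 16 hippocampal neuron markers could be named.

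Of the 5 genes, all 5 were at least 2-fold higher in the surgery pool, beside 1.47% of all detected features, a count that the choice of the genes fixed. The increase was 4.66-fold for Foxc2, 4.67-fold for Aldh1a2 and 4.97-fold for Crabp2, and 2.05-fold for Foxc1 and 2.22-fold for Foxd1. In pooled tissue, a larger share of the cells that express a gene and more RNA of it per cell cannot be told apart. All 10 spots of the 5 genes were well above background, none was saturated, and none was marked as uneven or as an outlier in the spot or in its local background.

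**Figure D1:**
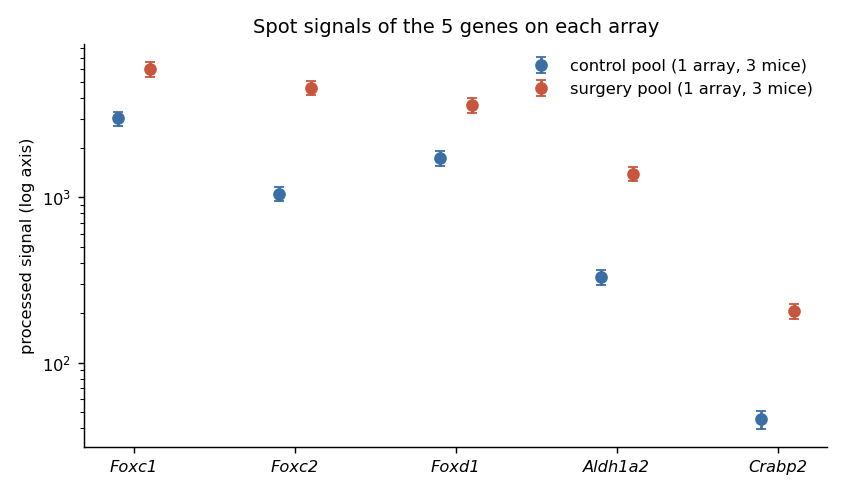
Processed signal (log axis) of the 5 genes for the control pool and the surgery pool, with the spot error as bars. Each point is 1 array with the RNA of 3 mice, and every surgery point lies above its control point by more than both error bars, from 45.6 to 205 for Crabp2 up to 3007 to 5979 for Foxc1. The choice of the genes by their ratio fixed this separation.

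Among the transcription factors, Foxc2 had the largest increase. The spot gave 1054 ± 106 for the control pool and 4624 ± 462 for the surgery pool. The log2 ratio was 2.22 ± 0.20, which put the gene at rank 59 of the 44044 detected features. Foxc1, the closest paralog of Foxc2, gave 3007 ± 301 and 5979 ± 598. Its log2 ratio of 1.04 ± 0.20 lay just past 2-fold, at rank 593. Foxd1, a factor of another forkhead subfamily, gave 1733 ± 173 and 3625 ± 363, for a log2 ratio of 1.15 ± 0.20 at rank 446. The control and surgery signals of each of the 3 genes were separated by more than their spot errors, and those errors cover only the array. As the errors are small beside a 2-fold change, the choice of the genes by their ratio fixed this separation. Foxc1 and Foxd1 differed from each other in log2 ratio by less than the spot error of either.

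The enzyme gene Aldh1a2 gave 329 ± 33.1 in the control pool and 1389 ± 139 in the surgery pool. The log2 ratio was 2.22 ± 0.20, at rank 58 and within the spot error of the ratio of Foxc2. Crabp2, the binding protein, was the dimmest of the 5 spots, with signals of 45.6 ± 5.69 and 205 ± 20.9. Its log2 ratio of 2.31 ± 0.23, at rank 49, was the highest of the 5 in the processed signal. This value depended on how the background was treated. The median pixel of the spot, before background is subtracted, was 92.0 in the control pool and 241 in the surgery pool, over local backgrounds of 21.0 and 18.0. The log2 ratio was 1.43 from the median pixel and 1.28 after the normexp background correction, which adds a constant to every spot. For Aldh1a2 the median pixels were 364 and 1493, with a log2 ratio of 2.16, and for Foxc2 they were 1085 and 4656, with a log2 ratio of 2.18.

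**Figure D2:**
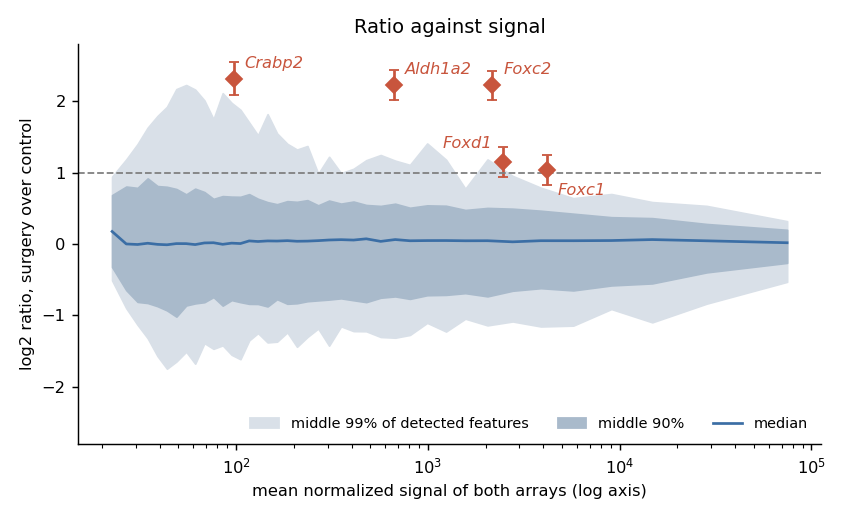
Log2 ratio of surgery over control against the mean normalized signal (log axis), with the 5 genes as diamonds with their spot errors and bands for the middle 90% and 99% of the detected features of like signal. Crabp2 at 2.31, Aldh1a2 and Foxc2 at 2.22, Foxd1 at 1.15 and Foxc1 at 1.04 lie above the dashed line of 2-fold. The bands widen towards dim features but narrow again at the dimmest, where the middle 99% runs from -0.51 to 0.94.

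The spread of ratios among all features was wider for dim spots, so each gene was set beside features of like signal. Foxc1 and Foxd1 lie in columns 54 and 51 of the array and among the brightest 25% of detected features, where 0.258% of the features of columns 1 to 150 were at least 2-fold higher. Crabp2 lies in column 2 and among the dimmer features, above the lowest 25% and under the median, where this share was 0.713%. Among all features of columns 1 to 150 it was 0.797%. These shares describe the array, and since the genes were chosen by the same ratios they say nothing of how unusual the genes are.

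Foxc2 and Aldh1a2 lie in columns 156 and 163, within the last 14 columns of the array. In those columns 8.4% of the detected features were at least 2-fold higher, and the share reached 22.6% in the last column. The shares were uneven among signals and rows. For Foxc2, also among the brightest 25%, 0.649% of the features of these columns were at least 2-fold higher, and for Aldh1a2, between the median and the brightest 25%, 3.73%. In blocks of 48 rows, drawn after the values had been seen, 4 of 456 features (0.877%) were at least 2-fold higher in rows 193 to 240, which hold Foxc2 in row 194. In rows 49 to 96, which hold Aldh1a2 in row 54, 46 of 523 (8.8%) were. The increase of Aldh1a2 thus stood among more raised spots than that of Foxc2.

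**Figure D3:**
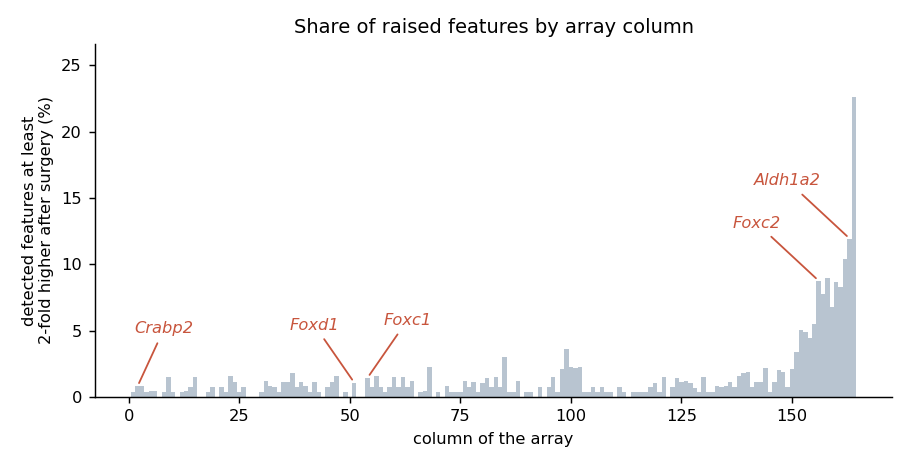
Percent of detected features at least 2-fold higher after surgery in each column of the array (bars), with the columns of the 5 genes named. Foxc1, Foxd1 and Crabp2 lie in columns with shares of at most 1.43%, and Foxc2 and Aldh1a2 in columns with shares of 8.76% and 11.9%.

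The spots within 5 rows and 2 columns of each gene gave a closer view. Around Foxc2, 30 detected spots had log2 ratios from -0.55 to 0.64 with a median of 0.14, and none was at least 2-fold higher. Around Aldh1a2, 34 spots ranged from -1.54 to 4.14 with a median of 0.09, and 3 were at least 2-fold higher. Of these 3, the spot directly below carries Fnbp1, with a log2 ratio of 2.07, and the others carry the lncRNAs XLOC_008030 and humanlincRNA0399, with 4.14 and 1.14. No spot around Foxc1 (36 spots, median 0.09), Foxd1 (38 spots, median 0.14) or Crabp2 (24 spots, median 0.02) was at least 2-fold higher. With the local median subtracted, the log2 ratio was 2.08 for Foxc2, 2.13 for Aldh1a2, 2.30 for Crabp2, 1.01 for Foxd1 and 0.95 for Foxc1, the last under 2-fold.

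**Figure D4:**
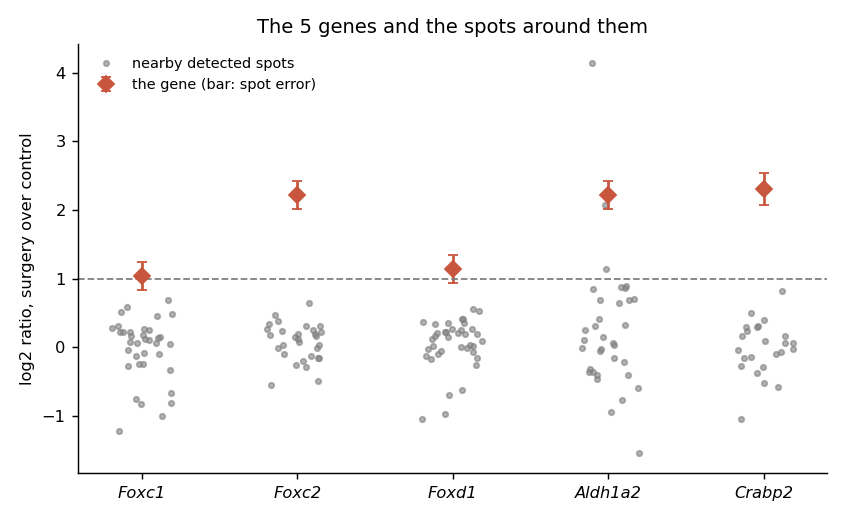
Log2 ratios of surgery over control of the 5 genes (diamonds, with the spot error) and of the detected spots within 5 rows and 2 columns of each (grey points). The spots around Foxc1, Foxc2, Foxd1 and Crabp2 all lie under the dashed line of 2-fold, and 3 of the 34 around Aldh1a2 lie above it.

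A direct reading of the position was given by 10 sequences that are spotted many times and have spots both inside and outside the last 14 columns. Their mean log2 ratio inside minus outside ranged from -0.08 to 0.28 with a median of 0.00, over 22 inside spots. Of the 10, 8 had mean signals of 11568 and above, brighter than any of the 5 genes. The dimmest, with a mean signal of 720, had the highest difference, 0.28, from 1 inside spot. It lay between the normalized signals of Aldh1a2 (310 and 1447). Another sequence, with a mean signal of 2435, lay between those of Foxc2 (1006 and 4691). Its difference was 0.003, from 3 inside spots. With so few sequences as dim as these genes, the part of spot position in their ratios was not tested.

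Across 13 other ways of processing, Foxc2 kept a log2 ratio between 2.08 and 2.30, Aldh1a2 between 2.07 and 2.31 and Crabp2 between 1.28 and 2.34. Foxc2 and Aldh1a2 have no value where the last 14 columns are left out. Foxd1 ranged from 1.01 to 1.23. Foxc1 ranged from 0.95 to 1.16 and was under 2-fold in 3 of the 13, namely 0.99 without normalization between the arrays, 0.997 with the column median subtracted and 0.95 with the local median subtracted. All 5 ratios stayed above 0 in each setting that gave a value. Some of the 13 only change which features are kept, so they could not move the ratio of a gene that stays in. These leave out the last 14 columns or the dimmest 25%, keep marked spots, or drop the filter on dim spots.

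**Figure D5:**
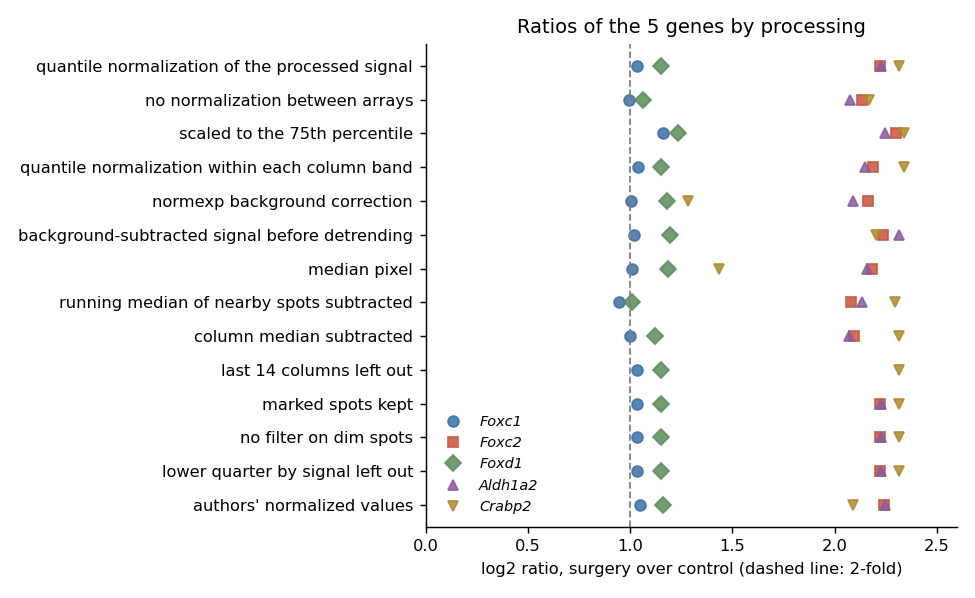
Log2 ratio of surgery over control of each of the 5 genes (markers) under the main processing in the top line and 13 alternatives below, with 2-fold as a dashed line. Foxc1 lies at 0.95 to 1.16 near the line, and Crabp2 moves from 2.31 to 1.43 with the median pixel and to 1.28 with the normexp correction.

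Next to Foxd1, on the same strand, the lncRNA AK086365 begins 178 bases past the last base of the gene and spans chr13:98356883-98359305. It is the only listed lncRNA within 10 kb of any of the 5 genes, and its spot, in row 122 and column 56, is separate from that of Foxd1. The last 30 bases of its oligonucleotide are shown because it read the transcript next to Foxd1 with a separate sequence, whose longest run shared with that of Foxd1 was 5 bases.
AK086365: gatttctttctctatcgggtaattatttta

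The spot gave 176 in the control pool and 333 in the surgery pool, with a log2 ratio of 1.09 ± 0.21, close to the 1.15 of Foxd1. None of the 40 spots around it was at least 2-fold higher. AK086365 was looked up after the values had been seen, and it is named only because the authors list it as changed.

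Of 44 forkhead genes, 4 could be named, and besides the 3 above this was Foxd2, a relative of Foxd1. Its signal rose from 150.6 to 613, with a log2 ratio of 2.18 ± 0.21. The spot is in column 160, and 8 of the 42 spots around it were at least 2-fold higher. The lncRNA Foxd2os, transcribed in the opposite direction from beside Foxd2, lies in column 14 and gave 163 and 299, a log2 ratio of 1.05 ± 0.21, with no raised spot among the 32 around it. Foxl2os, the transcript divergent from the forkhead gene Foxl2, gave 537 and 1030, a log2 ratio of 1.08 ± 0.20, in column 22. The other 40 forkhead genes could not be named, among them Foxf1 and Foxl1 beside Foxc2 and Foxq1 and Foxf2 beside Foxc1, and nothing can be said of their change.

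The retinoid pathway could be read only through the 2 chosen genes. Of 38 genes in 4 lists, for uptake and synthesis (18), binding and breakdown (6), receptors (6) and target genes of retinoic acid (8), only Aldh1a2 and Crabp2 could be named. Neither the other retinaldehyde dehydrogenases Aldh1a1 and Aldh1a3, nor the degrading enzymes of the Cyp26 family, nor any retinoic acid receptor has a named probe. A gene without a name may be unchanged, undetected or among the part of the coding list not used here. The data therefore give levels for a synthesis gene and a binding protein gene and none for the receptors or the targets.

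Of 17 other transcription factors known from meningeal mesenchyme, 3 could be named, and all 3 lie in the last 14 columns. Zic2, a zinc finger factor, rose from 29.6 to 144, a log2 ratio of 2.41 ± 0.28. Tfap2c, a factor of the AP-2 family, rose from 132.6 to 292, a log2 ratio of 1.30 ± 0.30. The spot of Tfap2a was marked as uneven or as an outlier, and no ratio was taken. The lncRNA AK042753, divergent from Zic4, was well above background in the surgery pool alone, with signals of 14.03 and 54.9. Its log2 ratio of 2.09 ± 0.40 rests on that dim control spot and is not a bound. After normalization, its surgery signal was 3.66-fold the lowest control signal that was well above background, with the spot error left out.

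Of 28 markers of meningeal fibroblasts and of the arachnoid, 10 could be named, all of them from the authors' list of changed probes, and 9 were detected on both arrays. All 9 had at least 2-fold more signal after surgery, beside 1.47% of all detected features. Their log2 ratios ran from 1.01 to 3.29 with a median of 1.28, and none lies in the last 14 columns. Their summed normalized signal was 48832 in the control pool and 111221 in the surgery pool, and most of it came from 2 bright spots, those of Mgp, a matrix protein (30424 and 61281), and Ptgds (16817 and 40727). Mgp, with a log2 ratio of 1.01, is named for this reason and after its values had been seen. Since a marker could be named only where the authors list it as changed, these counts are not read as a result about the list.

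The largest ratios were those of Slc47a1, an organic cation exporter, which rose from 439 to 3977 (3.29 on the log2 scale), of Cdh1, the epithelial cadherin of the arachnoid barrier, which rose from 352 to 2706 (3.07), and of Dapl1, which rose from 90.2 to 631 (2.95). Slc22a2, another organic cation transporter, had a log2 ratio of 1.83, and 6 of the 34 spots around it were at least 2-fold higher. Ptgds, the lipocalin-type prostaglandin D synthase, rose from 16530 to 42242, with a log2 ratio of 1.28. Col3a1, a fibrillar collagen, had a log2 ratio of 1.20, Slc6a13, a transporter of GABA and taurine, of 1.15, and Dpp4, a cell surface peptidase, of 1.03. Their spot errors were 0.20 to 0.27. Separate spots for transcripts that overlap exons of Ptgds (ENSMUST00000144016) and Slc6a13 (ENSMUST00000142021) had log2 ratios of 1.54 and 1.45 (each ± 0.20). Emilin3 was outside the rule for naming genes and is given because it was the only named marker that failed detection on the control array. Its signals were 3.55 and 106. After normalization, its surgery signal was 7.10-fold the lowest control signal that was well above background, with the spot error left out.

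Markers of other cells were few. Of 12 choroid plexus markers 1 could be named, Clic6, an intracellular chloride channel protein, which was lower after surgery, at 1063 and 368, a log2 ratio of -1.38. Of 7 mural cell markers 1 could be named, Anpep, at 1322 and 2937, a log2 ratio of 1.25 in column 156, where 9 of the 36 spots around it were at least 2-fold higher. Camk2a, a neuronal kinase, was read by a dim spot that gave 48.5 and 111, a log2 ratio of 1.35 ± 0.24. It lies in column 148, where 3 of the 37 spots around it were at least 2-fold higher. No marker of endothelial cells, astrocytes, microglia, red blood cells or neutrophils in the lists could be named. Part of the authors' coding list was not used here, and such a marker may be listed there as changed. The amount of meningeal tissue that was taken with each hippocampus was not measured in these data, and its part in the ratios of the 5 genes was not tested.

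Outside the last 14 columns, the named coding gene with the ratio nearest to that of each of the 5 genes was found over the single contrast that the arrays give. It was Dpp4 for Foxc1 (1.03 against 1.04), Slc6a13 for Foxd1 (both 1.15), Fam180a for both Foxc2 and Aldh1a2 (2.25 against 2.22) and Etnppl for Crabp2 (2.32 against 2.31). Dpp4 and Slc6a13 are among the meningeal markers above. With 1 value per gene, such likeness is a matter of size alone.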

How the data were processed

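RNA from 3 hippocampi per group was pooled and hybridized to 1 one-colour Arraystar mouse lncRNA array per group, and both arrays come from the same slide scan. The authors read the arrays with Agilent Feature Extraction and deposited spot intensities that, per the file headers, had their background removed and were detrended, array by array. They also deposited quantile-normalized log2 values from GeneSpring, used here as an alternative.

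The log2 processed signals of the 61500 non-control spots were quantile normalized and repeated spots averaged. Spots marked as non-uniform or as population outliers on either array were left out. A feature counted as detected when both arrays had it positive, significant and well above background, and changes of at least 2-fold were counted. With 1 array per group no test was run. The deposited intensities lack the mean signal, so normexp (R 4.3.3, limma 3.58.1, offset 50) used the median pixel. Python 3.11.15, numpy 2.4.6, pandas 2.3.3 and matplotlib 3.10.9 were used. The calculations were tested on simulated data, which hold no spread between mice.

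Gene names, sequences and positions come from the list of changed probes supplied with the study, with 446 coding rows, a shortened sheet, and 866 lncRNA rows. Its fold changes were not used. Its positions match GRCm38.p6 in RefSeq, whereas the array header names mm9. All 5 genes were found by accession. Named besides them were up to 8 changed genes per related list, by size of ratio. The genes and lists were chosen with earlier results of these data known. Alternatives covered normalization (none, the 75th percentile, separate column bands), background correction, median pixel, local and column medians, the last 14 columns, marked spots and dim features. The value of 1 further gene in the marker lists is not reported here. The array number limits the precision.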

Additional observations from a re-analysis of the deposited data

How the results depend on the processing

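No paired analysis was possible because each group has 1 array. Without normalization between the arrays, 1483 detected features were at least 2-fold lower, against 858, and features higher made up 24.0% of those changed, against 43.0%. The median log2 ratio was -0.07, against 0.04. The share of changed features that were higher was 31.4% with the local median subtracted and 30.4% with the last 14 columns left out. Features higher and lower numbered 174 and 190 with normexp, 210 and 243 with the median pixel, 2384 and 2748 without the filter on dim spots, and 341 and 547 without the dimmest 25%, against 647 and 858. Leaving out the last 14 columns gave 320 higher and left 3 of the chosen genes, all 3 of them at least 2-fold higher. For Crabp2 the log2 ratio was 1.28 with normexp and 1.43 with the median pixel. The causes were not tested, except where fewer features were kept by construction. The 4 other chosen genes moved by less than their spot error in each alternative that gave a value. Alternatives that only change which features are kept could not move them.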
